A study of Drosophila melanogaster with 24 samples.

Results

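The cytoplasmic ribosomal protein genes of Drosophila were examined in embryos with a maternal knockdown of the histone deacetylase HDAC3. They were taken as every row of the gene count table whose FlyBase symbol starts with RpL (large subunit) or RpS (small subunit), which gave 87 of 17559 genes, 51 RpL and 36 RpS. The rule used names only and no measured value. Symbols of that form numbered 92 in the name table, and RpL19, RpL27A, RpL31, RpS10b and RpS12 carry identifiers that did not match a row and were not analysed here. Because of the filter on low counts, 84 of the 87 genes were tested, among 10003 genes in all.

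RNA-seq had been carried out on whole embryos aged 2 to 4 h, in 6 genotypes with 4 replicates each. Control embryos came from mothers with the driver alone (tub-GAL4/+), and HDAC3 shRNA embryos from mothers that also carried a hairpin against HDAC3 under its control (tub-GAL4/shRNA HDAC3). The other 4 genotypes, named rescue WT, HEBI, K26A and Y303F, had an added shRNA-resistant transgene for wild-type HDAC3 or 1 of 3 mutant proteins. Per the study, all 3 mutations lower deacetylase activity and HEBI was designed to remove binding to the corepressor SMRTER. All 6 genotypes share the driver, matalpha4-GAL-VP16, which acts in the female germline, so that the knockdown is maternal. The hairpin sits on chromosome 3 of a y sc v sev stock and the transgenes, under the HDAC3 promoter, at 1 landing site on chromosome 2. The control carries neither of these chromosomes, so in every comparison with control the loss of HDAC3 and the stock background cannot be told apart. HDAC3 itself was at 0 counts in all 24 libraries, so that the knockdown could not be checked here and genotypes are given as labelled. The study itself reports that HDAC3 protein was nearly gone and its RNA scarce in HDAC3 shRNA embryos. Both were partly restored with the wild-type transgene. It also describes endogenous HDAC3 RNA in the Y303F embryos. Each library was made from embryos homogenized together, and the study describes the 4 per genotype as biological replicates.

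Ribosomal proteins assemble with ribosomal RNA into the small and large subunits and are needed in nearly equal amounts. Most are encoded in Drosophila by a single gene, and losing 1 copy of many of them gives the slow growth and thin bristles of the Minute phenotype. A few exist as pairs of paralogues, of which 1 is often used mainly in ovary or testis. The egg is loaded by its mother with ribosomes and with ribosomal protein mRNAs, and these mRNAs are known as a class whose translation is controlled by their short 5′ ends. In whole embryos a lower value can come from fewer cells of a type or from less RNA per cell, which cannot be told apart.

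Libraries held 9.99 to 26.6 M counts (median 19.6 M), and values below are counts per M of library counts after TMM scaling (CPM, factors 0.862 to 1.23). Libraries of all genotypes differed by replicate number. The summed level of early blastoderm genes (9 of 10 in the table, 1 at 0 everywhere) was 3360 to 4010 CPM in control replicates 1 and 2 and 1010 to 1030 CPM in control replicates 3 and 4, and 1050 to 2080 CPM in HDAC3 shRNA. Genes of late embryonic differentiation (10 of 10 in the table) summed to 209 to 1780 CPM in control, highest in replicate 3, and to 13 to 281 CPM in HDAC3 shRNA. Eggshell and yolk genes summed to 1.27 to 33.8 CPM over all 24 libraries and germ plasm genes (4 of 7 in the table) to 128 to 463 CPM. The part of these differences in the results below was not tested.

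Ribosomal protein genes took a large share of all counts, which differed by replicate number in every genotype. It was 14.7%, 17.9%, 15.9% and 19.7% of library counts in control replicates 1 to 4, and 13.1%, 14.5%, 14.7% and 18.9% in HDAC3 shRNA. The 4 libraries of rescue WT were at 13.5%, 16.8%, 14.8% and 19.1%. In these 3 genotypes replicate 4 was highest and replicate 1 lowest, and the genotypes overlapped. Shares in the same order were 14.6%, 18%, 15.5% and 22.2% in rescue Y303F. They were 13%, 15.9%, 15% and 20% in rescue K26A, and 15.5%, 19.9%, 15.8% and 19.7% in rescue HEBI. Over genotypes, replicate 1 spanned 13% to 15.5%, replicate 3 14.7% to 15.9% and replicate 4 18.9% to 22.2%, so that replicate 4 overlapped neither replicate 1 nor replicate 3. Genotype means lay between 15.3% ± 2.5 (SD, n = 4) in HDAC3 shRNA and 17.7% ± 2.4 (SD, n = 4) in rescue HEBI. Within replicate numbers, a comparison added after the values were seen, HDAC3 shRNA and rescue WT were below control in 4 of 4 pairs, by a mean difference of -1.74 and -1.02 percentage points. Rescue HEBI and rescue Y303F were above HDAC3 shRNA in 4 of 4 pairs (2.4 and 2.26 points) and above rescue WT in 4 of 4 (1.68 and 1.55 points), and rescue WT was above HDAC3 shRNA in 4 of 4 (0.714 points). With 4 pairs the exact sign-flip permutation test (two-sided) cannot go below p = 0.125, which these 7 of 12 comparisons reached (adjusted p = 0.214), so none passed. The other 5 had both signs. RpS counts per RpL count stayed between 0.662 and 0.714 in all 24 libraries.

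**Figure D1:**
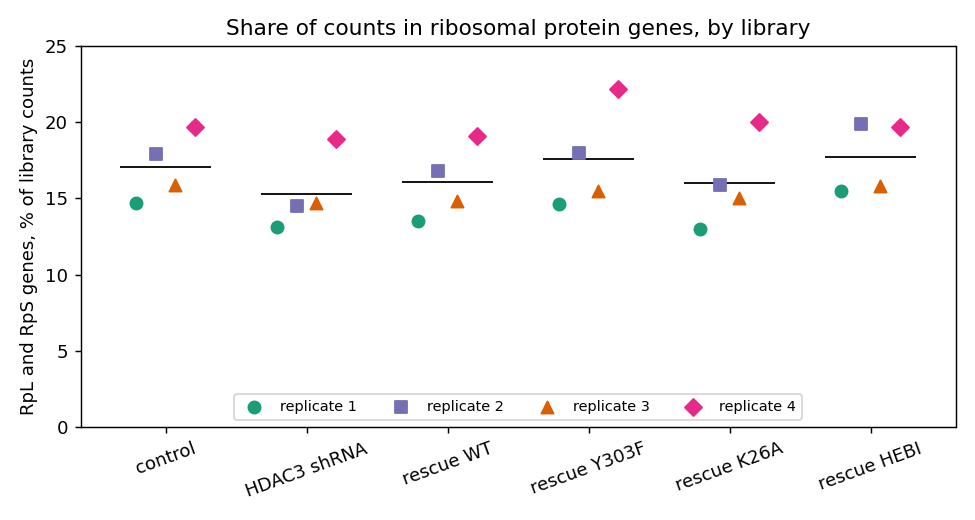
Share of each library's counts, in percent, that fell on RpL and RpS genes. Points are the 24 libraries with 1 colour and shape per replicate number, and lines are means of 4 libraries. Replicate 4 lies between 18.9% and 22.2% and replicate 1 between 13% and 15.5% over the 6 genotypes.

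To compare levels between genes, CPM was divided by the kb of exon that no other gene shares. On this scale the 79 genes over 10 CPM in control had a median of 2190 CPM per kb, against 10.6 CPM per kb for all tested genes, and 71 of them were among the 100 highest genes of the embryo. The highest was RpL41, which encodes a very short basic peptide of the large subunit, at 16600 ± 4250 CPM per kb (SD, n = 4, range 12600 to 22400). It stood above RpL39 (5850 ± 911 CPM per kb), another very small large-subunit protein, without overlap. RpL23 (4580), the acidic stalk protein gene RpLP2 (4520) and RpS18 (4440 CPM per kb) came next and did not differ beyond their spread. The middle of the set was narrow, with a ratio of 4.2 between the 90th and 10th percentiles. The order was nearly the same in every library, with a correlation across these 79 genes of at least 0.942 (median 0.989) over 276 pairs of libraries, which share gene lengths and base composition.

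Below this plateau came genes with more abundant partners or a special position. RpL24-like, related to ribosome assembly factors, was at 435 and RpL38 at 188 ± 5.61 CPM per kb (SD, n = 4). RpLP0-like, which resembles a ribosome assembly factor more than its stalk relative, was at 105 ± 12.9 and RpS15Ab at 88.7 ± 14.6 CPM per kb, and these 2 overlapped. Another 5 genes were under 10 CPM in control although they passed the filter. They were RpS28a at 3.07, RpS10a at 2.23, RpL37-2 at 1.64, RpS19b at 1.42 and RpL22-like at 0.654 CPM per kb, and their control ranges overlapped between neighbours in this order. They rest on 200 (RpL22-like) to 782 (RpS19b) counts summed over 24 libraries. The 3 genes that were not tested held 35 (RpS28-like), 20 (RpL10Aa) and 6 counts (RpL7-like) in all, and 98.8% of the exon bases of RpL7-like are shared with CG34164.

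**Figure D2:**
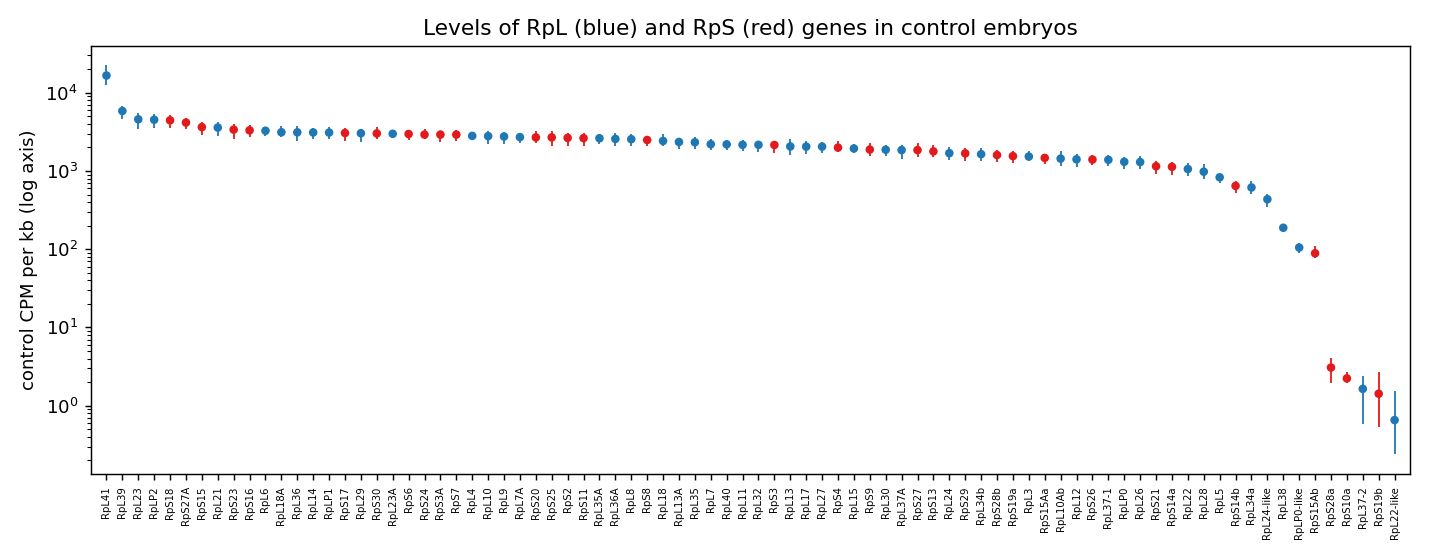
Level of 82 of the 84 tested genes in control embryos, in CPM per kb of unshared exon on a log axis, ordered from high to low (RpL blue, RpS red). Points are means of 4 libraries and bars span the lowest to the highest library. RpL41 stands at 16600, and 5 genes lie at 3.07 or below.

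The genes were spread over 3R (23), 2R (19), 2L (18), 3L (13), X (13) and chromosome 4 (1, RpS3A). Introns of 25 of the 87 genes (28.7%) hold annotated snoRNA genes, 64 in all, whereas 81 of 13685 protein-coding genes (0.59%) do. RpS7 has 7 of them, RpS16 5 and RpL17 4. Since snoRNAs guide modification of ribosomal RNA, such introns place parts of the ribosome machinery in 1 transcript. Another gene shares exon bases with 30 of the 87, and shared bases are over 20% in 7 of them, such as RpL22 (34.3%) and RpL3 (21%).

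Within paralogue sets the split of RNA differed widely. Of the summed level per kb, RpS19a made up 99.9%, RpL37-1 99.9%, RpS28b 99.8% and RpL22 99.9% in control, so that their partner genes were close to absent. RpS15Aa made up 94.3% ± 0.593 and RpLP0 92.5% ± 0.705 of their sets (SD, n = 4). Both partners were abundant in other sets, with RpL24 at 79.5%, RpL34b at 72.7% and RpS14a at 63.6%. RpS14a and RpS14b lie side by side on X, from 7933742 to 7934677 and from 7934898 to 7935792 (assembly BDGP6.54), and near-identical copies such as these can exchange reads, so their split is uncertain. RpS14a was at 62.9% to 64.5% in control and at 68.7% to 71.2% in HDAC3 shRNA, without overlap, and in the 4 rescues at 62.2% to 66.8%. In the same way RpLP1 made up 39.2% to 42.3% of the acidic stalk pair RpLP1 and RpLP2 in control and 45.2% to 47.4% in HDAC3 shRNA. In the 4 rescues it was at 38.4% to 45.9%, which overlaps both. Control and HDAC3 shRNA also parted for RpL34a (27.1% to 27.5% and 28.1% to 29.7%), RpLP0-like (6.79% to 8.3% and 5.72% to 6.58%) and the low-count RpL22-like. They overlapped in the RpS15A, RpS19, RpL24 and RpL37 sets. No test was made of these splits. Neither RpS14 gene was called between HDAC3 shRNA and control (edgeR, RpS14a log2 fold change 0.21, adjusted p = 0.487, RpS14b -0.20, adjusted p = 0.524).

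In HDAC3 shRNA embryos most ribosomal protein genes stayed close to control. In edgeR 1 of 84 was called higher and none lower, where 10% of all genes tested were called in either direction, 2.75% higher and 7.28% lower. The median log2 fold change was 0.02 against 0.013 over all genes, and 79 of 84 were within 1.5-fold of control, as were 63.4% of all genes. Other genes over 100 CPM with at most 1000 exon bases (142 genes) had a higher median, 0.17. Of these 111 were above control, as were 46 of the 84 members. At an unadjusted p under 0.05 there were 5, where 24.7% of all genes were, and DESeq2 called 4, with RpL38, RpS10a and RpL22-like among them, and 15.7% of all genes. With the replicate number as a block, 7 were called higher and 4 lower, where 27% and 26.9% of all genes were called in these directions and 53.9% in either. Among them were RpLP0 (0.30), RpLP1 (0.39), RpS3A (0.40), RpS15Ab (0.31), RpS19b (0.82) and RpL38 (1.15) on the higher side, and RpL3 (-0.22), RpS10a (-1.39) and RpL22-like (-1.65) on the lower. RpLP0 is the scaffold of the stalk that recruits translation factors and RpLP1 and RpLP2 are its acidic arms, and RpLP2 was at 0.078 in the same fit (adjusted p = 0.483).

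In the rescues too, few members were called against control. There was 1 of 84 in rescue WT (0.44% of all genes), 1 in rescue Y303F (0.92%) and 1 in rescue HEBI (0.66%), while rescue K26A had 1 higher and RpS10a lower (3.94%, of which 0.72% higher and 3.22% lower). The 5 comparisons with control share its 4 libraries. DESeq2 called 1 in rescue WT (1.67%), 2 in rescue Y303F (3.61%), 2 in rescue K26A (7.89%) and 1 in rescue HEBI (1.99%). Median log2 fold changes were -0.023, 0.17, 0.20 and 0.075 in rescue WT, rescue Y303F, rescue HEBI and rescue K26A, and 0.04, 0.06, 0.053 and 0.11 over all genes. In rescue Y303F 81 and in rescue HEBI 80 of the 84 were above control, each mostly by small amounts, with quartiles of 0.12 and 0.21 in the former and 0.16 and 0.24 in the latter. Other genes over 100 CPM with at most 1000 exon bases (142 genes) had medians of 0.23 and 0.20 in these comparisons, close to those of the ribosomal protein genes. In rescue K26A and rescue WT against control they had 0.23 and 0.029, above the 0.075 and -0.023 of the members. With the replicate block 8 were called in rescue Y303F (12.7% of all genes), 12 in rescue HEBI (9.01%), 4 in rescue K26A (33.8%) and 1 in rescue WT (5.31%).

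**Figure D3:**
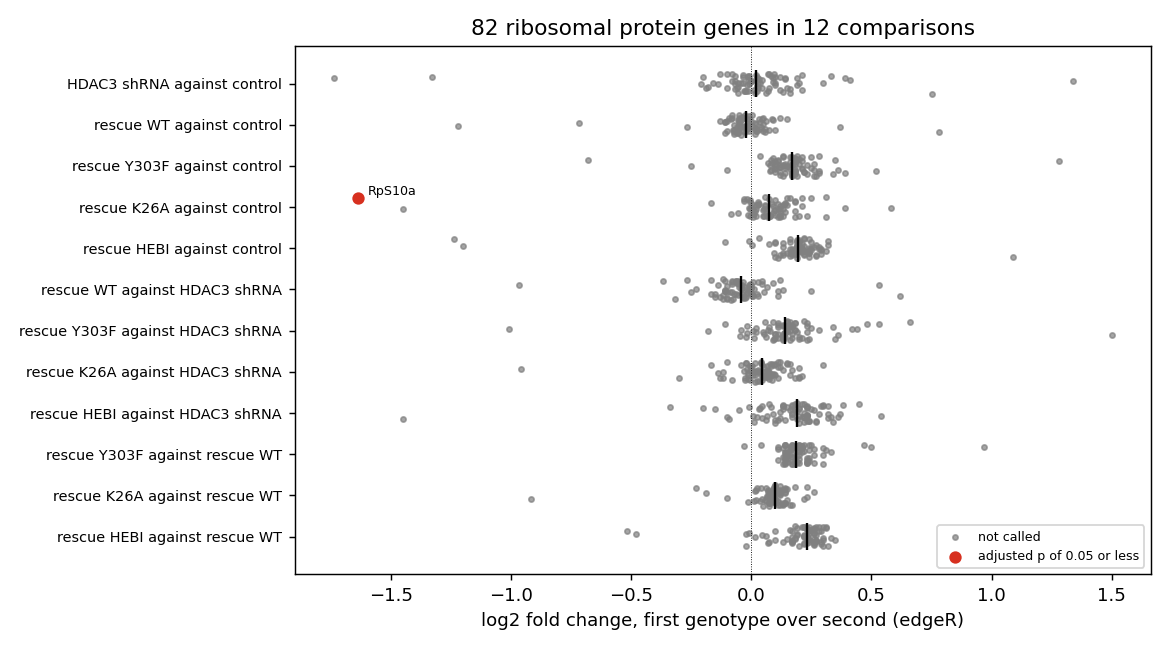
Log2 fold changes of 82 of the 84 tested ribosomal protein genes in the 12 comparisons, first genotype over second, by edgeR. Each point is 1 gene, black lines are medians, and red points passed an adjusted p of 0.05. RpS10a passed in rescue K26A against control, and most genes lie near 0 in every comparison.

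RpLP0 in rescue Y303F was above control in every library. It was at 1790, 1990, 1410 and 1770 CPM in control and at 2460, 2620, 2030 and 2880 CPM in rescue Y303F, and those libraries did not overlap. The log2 fold change was 0.52 (SE 0.148, edgeR adjusted p = 0.103), with 3.77e-04 with the block and 0.0465 by DESeq2. In HDAC3 shRNA, rescue K26A and rescue HEBI it was 0.30, 0.31 and 0.31, and 0.047 in rescue WT, all uncalled by edgeR without the block.

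Of the 5 members under 10 CPM, RpS10a, RpL22-like and RpS19b had the larger fold changes, most of them uncalled, while RpL37-2 and RpS28a were at -0.0013 and -0.14 in HDAC3 shRNA against control. RpS10a (3R from 27652760 to 27653363), a little-used partner of RpS10b, had values of 1.18, 1.61, 1.21 and 1.39 CPM in control and 0.156, 0.448, 0.625 and 0.482 CPM in rescue K26A, without overlap. It fell by 1.64 on the log2 scale (SE 0.439, edgeR adjusted p = 0.0374). The call did not hold when control replicate 2, 3 or 4 was left out, or replicate 1, 2 or 4 of rescue K26A (adjusted p 0.055 to 0.101), nor in replicates 3 and 4 alone (-1.30, 0.157) and with only the groups compared (-1.70, 0.109). In HDAC3 shRNA it was at 0.233, 0.439, 0.688 and 0.745 CPM, also below every control library. There it had -1.33 (adjusted p = 0.0529), was called by DESeq2 (0.0116) and with the block (0.00364), and in 11 of the 24 fits that leave out 1 library. Rescue WT was at 0.713 to 1.07 CPM (-0.72, adjusted p = 1.0) and rescue HEBI at 0.426 to 0.861 CPM (-1.24, adjusted p = 0.301, and 0.0365 with the block), both below control, and rescue Y303F at 0.458 to 1.44 CPM (-0.68) overlapped it. Library values rest on 3 to 27 counts.

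RpL22-like, a partner of RpL22 used mainly in the germline, was at 0.295, 0.417, 1.87 and 0.64 CPM in control, against 0.175, 0.146, 0.295 and 0.314 CPM with the knockdown. Control replicate 3, also highest for late differentiation genes, was far above the others. The log2 fold change of -1.74 (SE 0.602, edgeR adjusted p = 0.069) became -0.95 (0.438) without that library and -2.06 (0.0313) without control replicate 1. RpS19b, the germline partner of RpS19a, had values of 0.591, 0.358, 1.81 and 1.01 CPM in control, and of 1.22, 2.16, 2.44 and 3.33 CPM in rescue Y303F, which overlap. Its log2 fold change was 1.28 (SE 0.475, adjusted p = 0.252) and, with the block, 1.35 (adjusted p = 0.00705).

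RpL38 varied most among the abundant members, and in the knockdown rather than in control. It encodes a small large-subunit protein, and in mouse its loss alters translation of Hox mRNAs. The gene lies in the proximal part of 2R (4515388 to 4516458), near the centromere. Levels were 192, 191, 183 and 197 CPM in control, and 139, 767, 512 and 517 CPM with the knockdown. Knockdown replicate 1 was under every control library and the other 3 were at 512 CPM or more. Rescue WT had 110, 429, 154 and 293 CPM and rescue Y303F 158, 192, 169 and 444 CPM. Rescue K26A had 139, 329, 349 and 179 CPM, and rescue HEBI 172, 245, 149 and 143 CPM. Thus each hairpin genotype had 1 to 3 libraries above the control range and 1 to 3 below it. Replicate 1 was below it in every hairpin genotype, and which of the other replicates were high differed between genotypes. RpL38 also differed by replicate number (edgeR adjusted p = 0.0256). Replicates 2 and 4 were above 1 and 3 by 0.65 on the log2 scale, in all 6 genotypes, a split chosen after the values were seen.

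HDAC3 shRNA against control gave RpL38 a log2 fold change of 1.34 (SE 0.457, edgeR adjusted p = 0.0651), and 1.67 (0.0252) without HDAC3 shRNA replicate 1. With the block it was 1.15 (0.0141), and DESeq2 gave an adjusted p of 0.0287. Against the knockdown the rescues had -0.97 (rescue WT), -1.01 (rescue Y303F), -0.96 (rescue K26A) and -1.45 (rescue HEBI), none called by edgeR. For rescue HEBI the adjusted p was 0.121, and 0.00992 with the block and 0.037 by DESeq2. Over 24 libraries its coefficient of variation was 61.5%, against a median of 16.5% for the 79 genes over 10 CPM, of which 78 were under 30%.

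**Figure D4:**
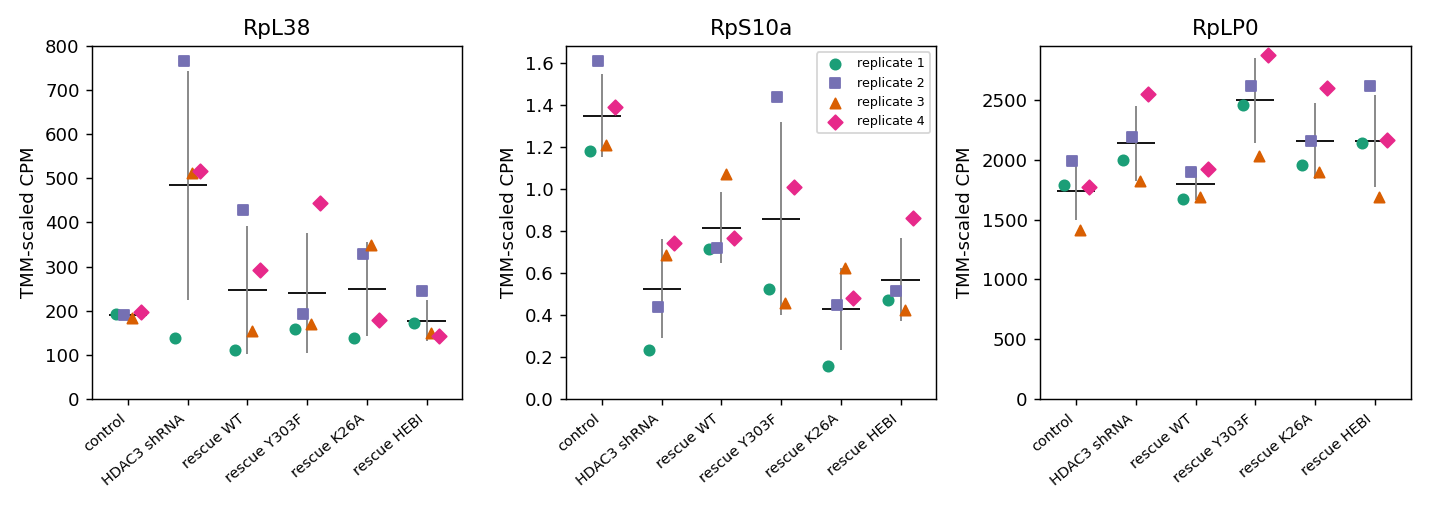
TMM-scaled CPM of RpL38, RpS10a and RpLP0 in the 24 libraries, with colour and shape for the replicate number, a line at the mean of 4 libraries and a grey bar of 1 SD on each side. RpL38 is at 183 to 197 in control and at 139 to 767 in HDAC3 shRNA, RpS10a is at 1.18 or more in control and at 0.156 to 0.625 in rescue K26A, and RpLP0 is at 2030 or more in rescue Y303F and at most 1990 in control.

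RpS3A, on chromosome 4, is named here after its values were seen because it also departed from the others. It was at 4230, 4270, 3190 and 4090 CPM in control, against 3880, 5920, 4840 and 6380 CPM with the knockdown, where replicate 1 was again the lowest. Its log2 fold change was 0.41 (edgeR adjusted p = 0.175), and 0.40 with 0.0222 with the block. Across the 24 libraries the deviations of the 79 genes from their genotype means moved together, with a median pairwise correlation of 0.902 over 3080 pairs that share library depth and scaling. The lowest median correlations with the other members were those of RpL38 (0.337), RpS3A (0.581) and RpL22 (0.624). RpL5 and RpL15, which also lie close to centromeres and were likewise named after their values were seen, had log2 fold changes of 0.16 and 0.10 in HDAC3 shRNA against control (adjusted p = 0.46 and 0.745). RpL21 (2L from 22247111) and RpL10 (3L from 23093190) had -0.035 and 0.20 (edgeR adjusted p = 0.916 and 0.501). The part of position was not tested.

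In edgeR without the replicate block, no member was called between a rescue and HDAC3 shRNA or between a mutant rescue and rescue WT. Calls with the block are given below. In edgeR the share of all genes called was 1.22% for rescue WT, 0.82% for rescue Y303F, 0.21% for rescue K26A and 2.19% for rescue HEBI against HDAC3 shRNA, and 0.02%, 0.13% and 0.04% for rescue Y303F, rescue K26A and rescue HEBI against rescue WT. At an unadjusted p under 0.05 there were, in the same order, 1, 6, 1 and 5 members against HDAC3 shRNA and 1, 1 and 2 against rescue WT. Of all genes, 11.4%, 10.1%, 4.12% and 15.1% were under it against HDAC3 shRNA, and 4.13%, 5.54% and 3.88% against rescue WT. DESeq2 called RpL38 lower in rescue HEBI against HDAC3 shRNA (4.72% of all genes) and no member in the other 6, where it called 4.07% (rescue WT), 2.01% (rescue Y303F) and 0.8% (rescue K26A) of all genes against HDAC3 shRNA and 0.45%, 0.95% and 0.37% for rescue Y303F, rescue K26A and rescue HEBI against rescue WT. The 4 comparisons with HDAC3 shRNA share its libraries, and the other 3 share those of rescue WT.

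Most members had small positive fold changes in several of these comparisons. In rescue HEBI the median log2 fold change was 0.19 against HDAC3 shRNA (all genes 0.077) and 0.23 against rescue WT (all genes 0.014), and 79 of 84 genes were above rescue WT. In rescue Y303F the medians were 0.14 (all genes 0.064) and 0.18 (all genes 0.0088), with 83 of 84 above rescue WT. In rescue K26A they were 0.044 (all genes 0.049) and 0.10 (all genes 0.068), with 78 of 84 above rescue WT. The 142 short abundant genes had medians of 0.037 and 0.17 for rescue HEBI and 0.087 and 0.19 for rescue Y303F in these comparisons. For rescue K26A they had 0.053 and 0.20. With the replicate block, 32 were called higher and RpL38 lower in rescue HEBI against HDAC3 shRNA, where 42.5% of all genes were called, 21.7% on the higher side, and 10 were called higher in rescue Y303F against HDAC3 shRNA (36.2%). The block also gave RpL38, RpLP0 and RpLP1 lower in rescue WT (32.1%) and none in rescue K26A (8.04%) against HDAC3 shRNA. Against rescue WT it gave RpL10Ab and RpLP0 higher in rescue Y303F (0.89%), RpS4 higher in rescue HEBI (1.69%) and none in rescue K26A (3.61%).

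Members with known roles outside the ribosome were not called in any of the 12 comparisons by edgeR without the block. RpS6, the substrate of S6 kinase, averaged 2950 ± 399 CPM in control, against 2920 ± 444 CPM with the knockdown (SD, n = 4, log2 fold change -0.013, edgeR adjusted p = 0.965). RpL40 and RpS27A, which are made as fusions to ubiquitin, had 0.037 (0.898) and -0.03 (0.926) in the same comparison. RpL22 had -0.18 (0.528), below the lower quartile of the members (-0.058), and in rescue HEBI against HDAC3 shRNA it had 0.45, where the median of the members was 0.19. With the block, RpL22, RpL40, RpS27A and RpS6 were called higher in rescue HEBI against HDAC3 shRNA (42.5% of all genes in either direction). RpL22 and RpS27A were called higher in rescue Y303F against HDAC3 shRNA (36.2%), and RpL40 and RpS27A in rescue HEBI against control (9.01%).

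Genes that build or use ribosomes were set beside them. Of 37 tested translation factors eIF3b (log2 fold change 0.32, edgeR adjusted p = 0.0354) and the cap-binding protein gene eIF4E1 (0.68, 0.0488) rose in HDAC3 shRNA against control, where 2.75% of all genes rose and 7.28% fell, with a list median of 0.18 (all genes 0.013). Of 30 ribosome biogenesis genes the exosome nuclease gene Dis3 (0.55, 0.045) and the nucleolar GTPase gene Ns1 (0.45, 0.0228) rose, with a median of 0.10. The 14 growth regulators had a higher median, 0.35, so that the 1 called member went against its list. This was Xrp1, a bZIP factor that acts in Minute cells. It fell by 1.27 (0.0228), from 39.4 ± 16.8 to 16.3 ± 10.3 CPM (SD, n = 4), and none of the others was called. Xrp1 also fell in rescue K26A against control (-1.44, adjusted p = 0.0228) and had -0.75 in rescue WT, -1.06 in rescue Y303F and -0.95 in rescue HEBI, which were not called. None of 9 RNA polymerase I genes and none of 70 mitochondrial ribosomal protein genes was called in any of the 12 comparisons by edgeR.

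Most members differed by replicate number. This test took the replicate numbers jointly, so its count cannot be set beside those of single genotype comparisons. In a model with genotype and replicate number, 82 of the 84 differed between replicate numbers, where 84% of all genes did, and DESeq2 also gave 82. The exceptions were RpS10a (edgeR adjusted p = 0.103) and RpL22-like (0.205). RpL10Ab, a large-subunit protein near the tRNA exit, had the lowest p, with means over 6 genotypes of 1180, 1470, 1400 and 1910 CPM in replicates 1 to 4 (adjusted p = 1.02e-08). RpL28 (9.49e-07), RpL18 (1.19e-06) and RpS24 (2.11e-06) were also among the 5 lowest.

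The form of this difference was chosen after the values were seen and is given with no test. Replicates 2 and 4 were above replicates 1 and 3 by a median log2 of 0.33 over the 84 genes, against 0.029 over all genes, and 82 of 84 were higher. RpS28a (-0.38) and RpS19b (-0.0053) were the exceptions. Mitochondrial ribosomal protein genes had 0.30 and translation factors 0.11. Among other genes over 100 CPM the same difference was 0.32 for up to 600 exon bases, 0.28 from there up to 1000, 0.14 up to 2000, -0.065 up to 4000 and -0.39 above 4000, so that it moved with transcript length. Members had 0.36, 0.34, 0.29 and 0.23 in the first 4 of these length classes, which hold 11, 40, 31 and 2 of them.

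Replicates 3 and 4 stood above 1 and 2 by a median of 0.019 in the members and 0.14 over all genes. Other genes over 100 CPM were lower, with 0.0098, -0.17, -0.26, -0.37 and -0.44 from the shortest to the longest length class. Mitochondrial ribosomal protein genes had -0.10. Among the members, larger values belonged to the low-count genes RpS28a (1.39), RpS19b (0.90) and RpL37-2 (0.88). An abundant member with a larger value was RpL10Ab (0.31). RpS28a averaged 0.573 and 0.481 CPM in replicates 1 and 2 and 1.8 and 1.09 CPM in replicates 3 and 4 over the 6 genotypes. What a replicate number stands for is not given in the labels, and the part of embryo age or RNA quality was not tested.

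**Figure D5:**
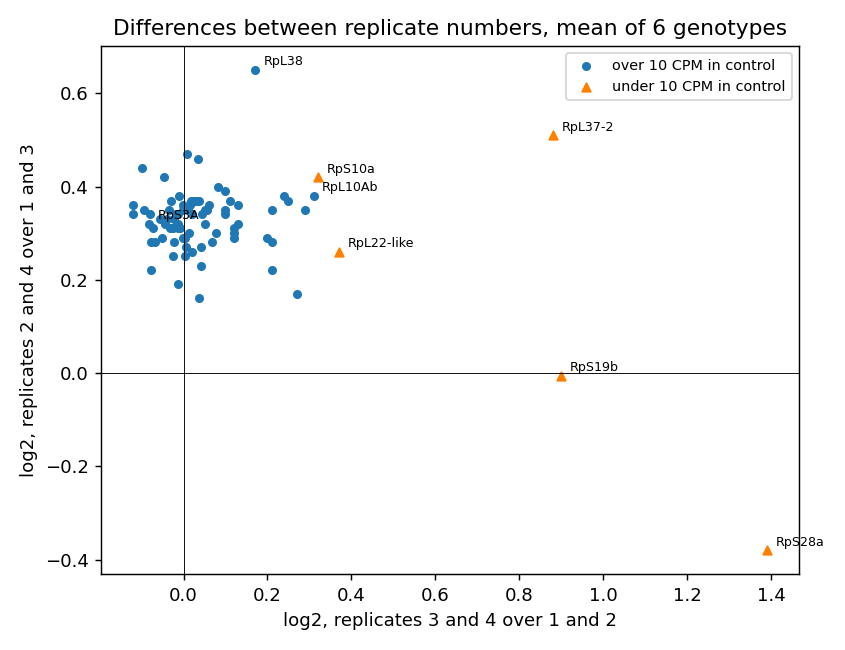
Log2 difference of replicates 2 and 4 over 1 and 3 (vertical) against that of replicates 3 and 4 over 1 and 2 (horizontal) for 82 of the 84 tested ribosomal protein genes, as means over 6 genotypes. Circles are genes over and triangles genes under 10 CPM in control. Most circles lie between 0.16 and 0.47 on the vertical axis, and RpS28a lies at 1.39 and -0.38.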

How the data were processed

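Deposited values were integer counts of reads for each FlyBase gene, without normalization, which the authors made from TruSeq Stranded Total RNA libraries of whole embryos with STAR (default parameters, dm6) and featureCounts. The submitters' processing notes also name DESeq2. Tool versions, the strand setting and the treatment of multi-mapped reads were not given in the sources used here, so antisense partners and near-identical paralogues cannot be separated with certainty. Symbols and coordinates are from annotation release 115 of BDGP6.54.

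Counts were fitted in R 4.3.3 with edgeR 4.0.16 (TMM, filterByExpr, quasi-likelihood, 1 mean per genotype, all 24 libraries, Benjamini-Hochberg over 10003 genes), and called at an adjusted p of 0.05. Alternatives were DESeq2 1.42.0, other scalings, no filter, a replicate block, subsets of replicates and leaving out each library. The procedure was tested on simulated data, which held no effect of replicate number and so cannot show how the main fit behaves with it. No pair of libraries within a genotype agreed within sampling noise (36 pairs, lowest chi-square per gene 38.3).

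The replicate numbers come from the labels. Over all genes tested, deviations of same-numbered libraries correlated at 0.184 to 0.797 (median 0.615, 60 pairs). Over the members alone the range was wider, -0.173 to 0.947 (median 0.529). Pairing by number was therefore accepted for the replicate block and the paired shares. The main fit leaves it out because the study states no block. The members and lists were chosen with earlier results of these data known. Named genes were members called in a comparison, paralogue sets, the 5 highest and 5 lowest per kb, the largest change per comparison, the 5 lowest p for replicate number, and members of known further roles. A planned motif search in promoters was not run, and sequences are not used here. The values of 2 tested members are not reported here, although the counts and medians include them.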

Additional observations from a re-analysis of the deposited data

Results flagged for a closer look

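Of 48 groups of 4 libraries tested for a library far from the rest, 3 were singled out, and chance gives about 1 in 20. RpS10a in rescue WT had replicate 3 at 1.07 CPM, with a gap to the nearest library of 0.842 of the range. RpL22-like in rescue WT had replicate 1 at 0.119 CPM, far below the others (0.854 of the range). RpL38 in rescue Y303F had replicate 4 at 444 CPM, far above the others (0.883 of the range). The limit for 4 libraries is 0.829.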

How the results depend on the processing

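The number of members called moved most with the replicate number as a block, to 11 (HDAC3 shRNA), 8 (rescue Y303F), 4 (rescue K26A) and 12 (rescue HEBI) against control, 3 (rescue WT), 10 (rescue Y303F) and 33 (rescue HEBI) against HDAC3 shRNA, and 2 (rescue Y303F) and 1 (rescue HEBI) against rescue WT. The block left the counts of the other 3 comparisons as they were. For HDAC3 shRNA against control the count was 4 with library totals alone or with DESeq2 and 2 with DESeq2 size factors in edgeR, with TMM factors computed without the members or in replicates 1 and 2 alone. DESeq2 gave 2 for rescue Y303F against control and 1 for rescue HEBI against HDAC3 shRNA. Replicates 1 and 2 alone gave 1 (rescue Y303F) and 7 (rescue HEBI) against HDAC3 shRNA. Replicates 3 and 4 alone gave 0, 0 and 0 for rescue WT, rescue Y303F and rescue HEBI and 1 for rescue K26A against control, and only the groups compared gave 0, 0 and 1 for rescue WT, rescue HEBI and rescue K26A. The causes were not tested. For the other scalings, subsets and left-out libraries, here and below, the share of all genes called is not given. Those counts therefore cannot be read as particular to the members.

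Leaving out 1 library gave 1 to 3 calls for HDAC3 shRNA, 0 to 1 for rescue WT and 1 to 2 for rescue K26A against control, 0 to 1 for rescue HEBI against HDAC3 shRNA, and 81 to 83 members for replicate number. RpL22-like in rescue Y303F against control (-0.25) turned to 1.49 in replicates 1 and 2 alone and ran from -0.75 to 0.55 over left-out libraries, and against rescue WT (0.97) it turned to -0.17 in replicates 3 and 4 alone. With library totals alone the median of all genes moved to -0.20 and that of the members to -0.18 in HDAC3 shRNA against control, while the members' median turned negative in rescue K26A against control (-0.11) and against rescue WT (-0.013). Low-count members rest on few reads, which limits them.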
